A study of Mus musculus with 2 samples.

Results

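The cytosolic ribosomal protein genes are those of 31 small-subunit and 49 large-subunit proteins whose symbols follow the Rps and Rpl naming scheme. Those counts include the stalk proteins Rplp0, Rplp1 and Rplp2 and the laminin-receptor homologue Rpsa. The genes were picked by symbol alone, without pseudogenes, which gave 80 of the 33696 genes in the count matrices. Of these, 79 had at least 20 unique molecular identifiers (UMIs, each standing for 1 captured RNA molecule) over all kept cells, and Rpl10l had none. The series measured liver immune cells of mice by droplet-based 3′ single-cell RNA sequencing in 2 libraries. The WT library came from floxed Bicd2fl/fl mice without Cre and the KO library from Bicd2fl/fl mice with Cre driven by the albumin promoter, which is active in hepatocytes. All mice had been given 2.5 mg of S-100, the soluble protein of homogenized liver mixed with Freund's complete adjuvant, by weekly intraperitoneal injection over 3 weeks, a model of autoimmune hepatitis, and cells of several mice were pooled. The sample labels also call the cells peritoneal and carry the tag HFD, which the rest of the description does not match.

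A cytosolic ribosome holds 1 copy of nearly every ribosomal protein, so cells that grow or divide make these proteins in large and balanced amounts. Their mRNAs begin with a C followed by a run of pyrimidines, the 5′ terminal oligopyrimidine (TOP) motif, through which mTOR and Larp1 set how strongly they are translated and how long they are stored. Naive lymphocytes are known for a large share of ribosomal protein mRNA, and mature neutrophils and late erythroid cells for a small one.

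Barcodes with at least 200 genes and at most 20% mitochondrial UMIs that were not marked as doublets were kept, 17171 in WT and 15795 in KO, with 65503738 and 42590433 UMIs and medians of 2789 and 2004 UMIs per cell. Cells were grouped without the ribosomal protein genes into 31 clusters, 25 of which could be named from marker genes, and 8 classes had at least 100 cells in each library. Of each class's markers, 13 of 14 (T-like), 14 of 16 (NK-ILC1-like), 16 of 17 (DC-like) and 10 of 11 (erythroid-like) were at least 2-fold higher in the class than elsewhere in WT, and 14, 13, 15 and 10 in KO. The same marker lists had named the clusters, so these counts describe the classes and are not an independent check of their names. Of 177 barcodes present in both libraries, 71 were kept in both and 13 of those fell in the same class, 18.3% where independent barcodes would give 15.7%. Bicd2 itself was read at 19.8 counts per 1000000 UMIs (CPM) in WT and 13.2 in KO over all kept cells, which does not test a deletion in hepatocytes. In the unnamed cluster led by the hepatocyte genes Fabp1 and Ttr it had 0 UMIs in 51 WT cells, which allows up to 26.3 CPM, and 4 UMIs (13.9 CPM) in 108 KO cells, so the deletion was not checked at this depth. Haemoglobin took 11.1% of kept UMIs in WT and 23.0% in KO. With 1 library per genotype no difference below has a replicate check, and every interval is a 95% interval for counting error only.

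The ribosomal protein genes took 9.47% of all kept UMIs in WT (95% interval 9.47% to 9.48%) and 9.20% in KO (9.19% to 9.21%), but with haemoglobin left out of the total the log2 ratio was 0.165 in place of -0.0429. Across the 8 classes with at least 100 cells in each library, the WT share ran from 0.645% in erythroid-like cells and 2.95% in neutrophil-like cells to 13.1% in B-like and 13.2% in dendritic-cell-like (DC-like) cells. In KO the order was alike at the bottom, with 0.670% in erythroid-like and 2.14% in neutrophil-like cells, and DC-like cells stood highest of the 8 at 13.3%. Progenitor-like cells, with 465 WT and 20 KO cells, lay above them at 17.0% and 14.8%. Mast-basophil-like cells, with 53 WT and 29 KO cells, had 14.8% and 7.41%, a KO to WT ratio of 0.501. Haemoglobin took 2.06% of their UMIs in WT and 27.1% in KO, and with it left out of the total the ratio was 0.673. Plasma-like cells, with 62 WT and 29 KO cells, had 7.21% and 9.60%, a ratio of 1.33. Among the 8 classes, the one that departed most was the NK-ILC1-like class. It was named from markers of natural killer cells and of their tissue-resident relatives, the ILC1.

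In NK-ILC1-like cells the share was 12.8% in WT (12.8% to 12.8%) and 8.48% in KO (8.44% to 8.51%), a KO to WT ratio of 0.661 (0.658 to 0.664). The median cell of that class had 2777 UMIs in WT and 1596 in KO, Malat1, a nuclear RNA, took 1.31% and 1.85% of UMIs and mitochondrial transcripts 1.92% and 1.35%, and the part of these in the share was not tested. Neutrophil-like cells had 2.95% in WT and 2.14% in KO, a ratio of 0.725 (0.718 to 0.732), and plasmacytoid-dendritic-cell-like (pDC-like) cells 9.55% and 7.69%, a ratio of 0.805 (0.798 to 0.812). B-like cells held 13.1% in WT and 12.1% in KO. The share was higher in KO in T-like cells, 12.9% against 12.01%, a ratio of 1.07, and by ratios of 1.01 and 1.04 in DC-like and erythroid-like cells. For DC-like cells the mean of per-cell shares gave a log2 ratio of -0.0808, the other direction. Monocyte-macrophage-like cells had 11.4% in WT and 11.0% in KO.

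Haemoglobin was a larger part of UMIs in KO in each of the 8 classes but erythroid-like cells, whichever way the ribosomal protein share went. In T-like cells it was 3.91% in KO against 1.78% in WT, and in B-like cells 4.21% against 1.28%. Haemoglobin took 15.9% of the UMIs of NK-ILC1-like cells in KO against 2.96% in WT, 15.4% against 2.99% in pDC-like cells, 15.4% against 4.00% in monocyte-macrophage-like cells, 11.0% against 4.37% in DC-like cells and 9.51% against 3.13% in neutrophil-like cells. Of 11 erythroid markers, 9 to 11 were higher in KO in each of the 7 other classes, with none at 0, and their summed share ran from 1.30% to 4.41% of UMIs in WT and from 3.95% to 16.02% in KO. Neutrophil markers went the other way, with 10 to 13 of 14 higher in WT in the 7 classes other than neutrophil-like cells and sums of 0.261% to 0.487% in WT against 0.0349% to 0.148% in KO, where Ly6g was at 0 in pDC-like cells. The part of red-cell and neutrophil RNA in the shares was not tested beyond the following. With haemoglobin UMIs left out of the total, the KO to WT ratio was 0.762 in NK-ILC1-like, 0.776 in neutrophil-like, 0.923 in pDC-like, 1.10 in T-like and 1.09 in monocyte-macrophage-like cells. On that scale the NK-ILC1-like and neutrophil-like shares were lower in KO, the monocyte-macrophage-like share was higher and the erythroid-like ratio was 0.875.

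**Figure D1:**
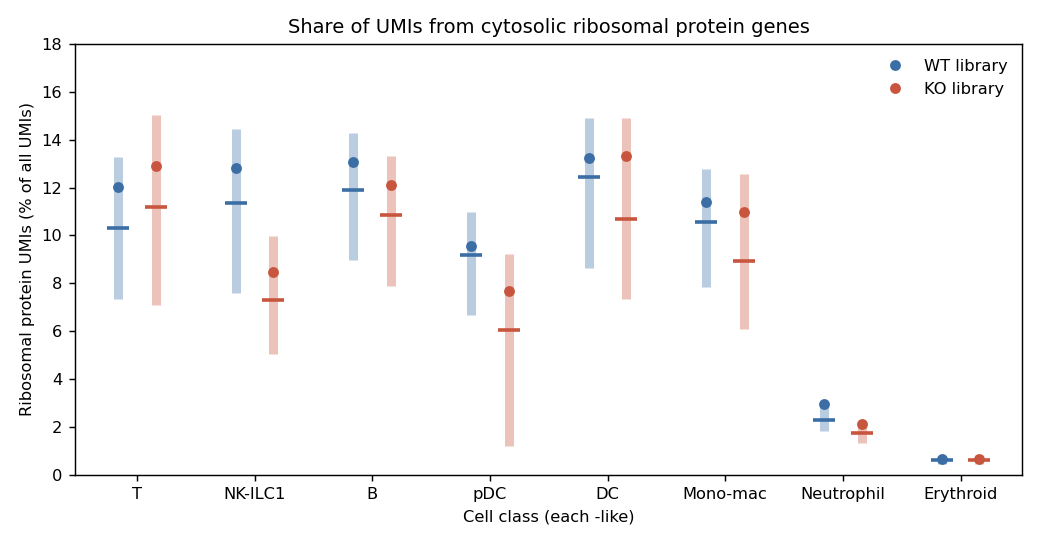
Share of UMIs from cytosolic ribosomal protein genes in each class and library. Dots are the share of summed UMIs, bars the quartiles over cells and lines the median cell. NK-ILC1-like cells sit at 12.8% in WT and 8.48% in KO, and neutrophil-like and erythroid-like cells lie far below the lymphoid and dendritic classes in both.

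The share was not even within a class, and the libraries filled the clusters differently. The T-like class came mostly from cluster 2 in WT (3197 of its cells, 123 in KO) and from cluster 0 in KO (3184 cells, 610 in WT). In cluster 2 the share was 10.7% in WT and 11.1% in KO, in cluster 0 it was 12.5% and 10.9%. The cluster led by Dapl1, Nsg2 and Tdrp, with 572 WT and 1303 KO cells, had the highest share of any named cluster, 18.9% in WT and 18.3% in KO. With clusters of the T-like class weighted equally, the share was lower in KO, a log2 ratio of -0.140 in place of 0.102 over summed UMIs.

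In T-like cells the naive lymphocyte list, which holds genes such as Ccr7 and Lef1, had 8 of 10 tested genes at least 1.5-fold higher in KO, where 10.9% of all genes were, and the effector list had 12 of 14 lower, where 17.6% of all genes were. In the same cells 20 of 20 cell-division genes were lower. In NK-ILC1-like cells, where the share was lower in KO, most genes of each of these lists went the same way (counts below). The part of the lists in the share was not tested.

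Both large clusters of the NK-ILC1-like class had a lower share in KO. Cluster 6, led by Klra8 and Klra4 with 695 WT and 903 KO cells, had 13.8% in WT and 8.20% in KO, and cluster 9, led by Gzmc and Klrb1b with 946 and 385 cells, 11.96% and 9.19%. Haemoglobin was 4.05% and 20.2% in cluster 6 but 1.97% and 4.90% in cluster 9. Leaving haemoglobin out of the total, the shares were 14.3% and 10.3% in the first and 12.2% and 9.66% in the second. Over the 18 named clusters with at least 50 cells in each library, the share of all UMIs was higher in KO in 4 and lower in 14. The ratios lay between 0.577 and 1.04, with a median of 0.894. Outside haemoglobin the share turned higher in KO in cluster 7 (2.81% in WT, 2.84% in KO), cluster 11 (12.9%, 14.3%) and cluster 14 (14.1%, 14.6%). It turned lower in KO in cluster 3 (5.30%, 4.64%). In cluster 19, which had the smallest ratio, it was 2.20% and 1.91%.

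**Figure D2:**
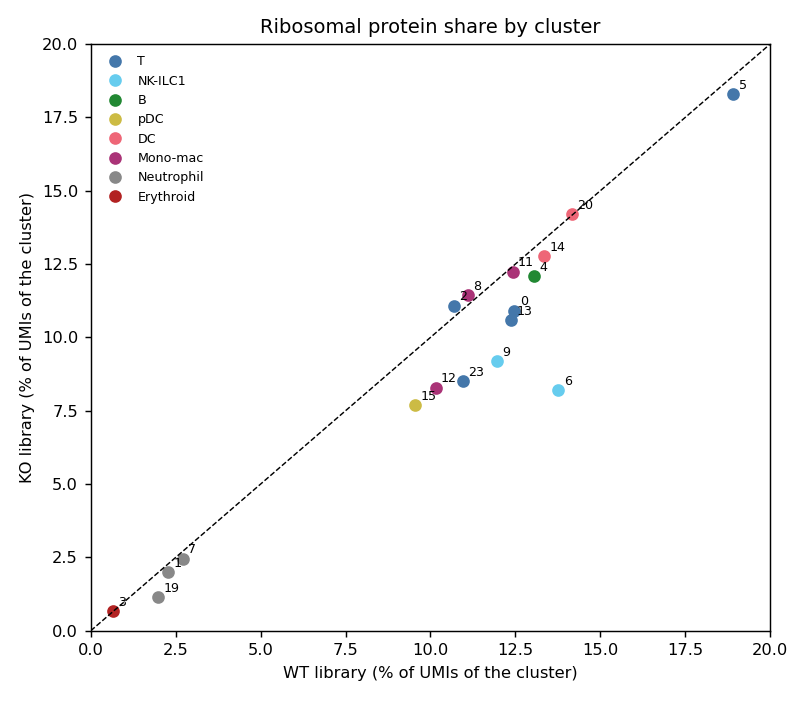
Ribosomal protein share of UMIs in WT (x axis) and KO (y axis) for the 18 named clusters with at least 50 cells in each library, numbered and coloured by class. Points below the dashed line are lower in KO, as 14 of the 18 are, and cluster 6 of the NK-ILC1-like class lies farthest below it in percentage points. Haemoglobin is counted in the total, and without it the direction changes in some clusters.

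By level over all kept cells, Rplp1, an acidic protein of the stalk, led in WT with 2321 CPM (2580 in KO) and was followed by Rps24 with 2319 (2489). At the low end stood Rpl4 with 502.9 CPM in WT (412.4 in KO) and Rpl31 with 353.4 (324.2), and below these the second copies. CPM here counts tagged 3′ ends and is not divided by length, so the order is one of captured molecules. RefSeq names 320 pseudogenes after 62 of the members, up to 24 for a single one, and how reads were shared with them is uncertain.

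Gene by gene, the members did not move as a block. A gene counts as called here when its CPM plus 1 differed at least 1.5-fold between the libraries, among genes with at least 20 summed UMIs. Over all kept cells 4 of 79 members were called higher in KO, where 6.01% of all genes were, and 4 lower, where 13.1% of all genes were. The median member stood at a log2 ratio of -0.16, and the median of all genes at -0.06.

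In T-like cells 6 of 78 members were called higher (10.9% of all genes) and 6 lower (17.6%), so over the class the count on each side was below the background. Among its clusters with at least 50 cells in each library, the lower count was above the background in clusters 0, 13 and 23. There 10, 14 and 25 of 77 members were lower, against 9.60%, 16.03% and 27.96% of all genes. The lower count was below the background in clusters 2 and 5, with 3 and 1 of 77 (27.6% and 9.05%). The part of the cluster mix in the class counts was not tested. Rpl37a, a small zinc-binding protein of the large subunit, was read at 1810 CPM in WT (1792 to 1829) and 4280 in KO (4240 to 4320), a ratio of 2.36 (2.33 to 2.40). That is a log2 ratio of 1.24 over the class. In T-like clusters with at least 50 cells in each library it lay lower, from 0.65 in cluster 23 to 0.92 in cluster 5. The libraries filled these clusters differently, and the part of that mix in the class ratios of this and the following members was not tested. Rps27, a zinc-finger protein of the small subunit, had 1704 CPM in WT and 3460 in KO, a ratio of 2.03, and Rps28, which lies at the mRNA exit of the small subunit, 1027 and 2036. Rps27rt, a near-identical copy of Rps27 that the naming rule leaves out, was read at 51.3 and 112.4 CPM, so the division of reads between Rps27 and that copy is uncertain. At the other end Rps27l, a paralogue of Rps27 induced by p53, had 213.3 CPM in WT against 92.9 in KO (log2 ratio -1.19). Rpl15, a core protein of the large subunit, had 952.1 CPM in WT and 543.6 in KO, and Rpl29 had 852.4 and 520.0. Rpl15 overlaps Nkiras1 on the other strand in the annotation. The other called members were Rps29, Rps21 and Rpl38 on the higher side and Rpl39l, Rpl28 and Rpl24 on the lower, with Rpl39l resting on 20 WT and 3 KO UMIs.

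NK-ILC1-like cells showed the most one-sided pattern. None of 78 members was called higher (6.90% of all genes) and 51 were called lower (18.9%), with a median member at -0.74 and a median gene at -0.14. Only 5 members had a log2 ratio above 0, Rpl37a, Rps29, Rps27, Rps28 and Rps21. Rpl37a stood at 2078 CPM in WT and 2774 in KO, a ratio of 1.33. Rpl15 had 1037 CPM in WT and 394.4 in KO, 2.63-fold lower in KO (2.46 to 2.81), and Rplp0, the base of the stalk, was 2.28-fold lower (2.15 to 2.41). The lowest log2 ratio, that of Rpl39l, rested on 22 WT UMIs and 1 KO UMI. At a 2-fold limit 13 members were lower, and with cells over 10% haemoglobin left out 37 were at least 1.5-fold lower.

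In neutrophil-like cells 45 of 78 members were called lower (23.1% of all genes) and 1 higher (18.3%), a median member at -0.64 against -0.02 for all genes. Rps4x, the X-linked small-subunit protein, had 269.5 CPM in WT and 101.7 in KO, 2.65-fold lower (2.31 to 3.06). Rpl37a was the member called higher, at 566.2 and 861.6 CPM. The KO library had 1023.5 UMIs in its median neutrophil-like cell and the WT library 2155, and Malat1 took 2.94% of UMIs there against 1.37%. Of 20 cell-division genes 20 were called lower in this class. When doublets were kept and cells clustered again, the log2 ratio of the share in this class was -0.0825 in place of -0.463, and 10 members were called lower. The libraries also filled the clusters of this class differently, with 1333 WT and 129 KO cells in cluster 7 and 370 and 15 in cluster 22, which had the highest share, 5.05% and 4.82%. Within clusters the ratio of the share was 0.879 in cluster 1, with 16 of 78 members lower (11.9% of all genes), and 0.908 in cluster 7, with 14 of 78 lower (21.4%). In cluster 19, with 393 WT and 76 KO cells, it was 0.577, with 61 of 76 lower where 47.1% of all genes were. Haemoglobin took 10.0% of the UMIs of cluster 19 in WT and 40.4% in KO. Outside haemoglobin the WT and KO shares were 2.30% and 2.11% in cluster 1, 2.81% and 2.84% in cluster 7 and 2.20% and 1.91% in cluster 19.

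Among pDC-like cells 15 of 77 members were called lower (18.2% of all genes) and 1 higher (6.14%). Rps4x had 1470 CPM in WT and 765.1 in KO, and Rpl4, which lines the exit tunnel, 577.6 and 319.5. Rpl37a was the member called higher, at 1199.5 and 1808 CPM. Under TMM scaling 5 members were called lower and under DESeq2 scaling 3, where those scalings moved the median of all genes in this class by 0.165 and 0.196. DC-like cells had 4 of 77 members called higher (6.32%) and none lower (10.0%). Rpl37a had 1429 CPM there in WT and 2707 in KO, a ratio of 1.89, followed by Rps27, Rps29 and Rps28. Their median member lay at -0.06 by CPM and at 0.00029 by TMM scaling, so its sign depends on the scaling.

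In B-like cells 1 of 77 members was called higher (6.93%) and 2 lower (8.25%). Rpl37a had 2168 CPM in WT and 3753 in KO, Rpl15 888.8 and 548.8, and Rps4x 1592 and 1025. In monocyte-macrophage-like cells 1 of 78 was called higher (6.26%) and 3 lower (12.4%), Rpl37a on one side and Rplp0, Rpl29 and Rps4x on the other. Rplp0 stood at 1706 CPM in WT and 1103 in KO.

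Erythroid-like cells carried few ribosomal protein UMIs, a mean of 23.2 for each WT cell and 22.02 for each KO cell, and a different leading gene. There 2 of 77 members were called higher (15.9%) and 12 lower (21.1%). Rpl41, the shortest member, was read at 327.8 CPM in WT and 892.0 in KO, a ratio of 2.72 (2.56 to 2.89). The other member called higher was Rpl37a, at 144.5 and 245.6 CPM. Rpl15, the lowest, rested on 167 WT and 36 KO UMIs. The direction in this class depends on the processing, since the median member was -0.27 as counted, 0.95 after estimated free RNA was subtracted and 1.18 with at least 500 genes per cell and at most 10% mitochondrial UMIs. The free RNA estimate was unequal, at 15.4 ribosomal protein UMIs for each WT cell and 7.16 for each KO cell. In WT it is a large part of the 23.2 UMIs of an erythroid-like cell, so the value after subtraction rests on that estimate.

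**Figure D3:**
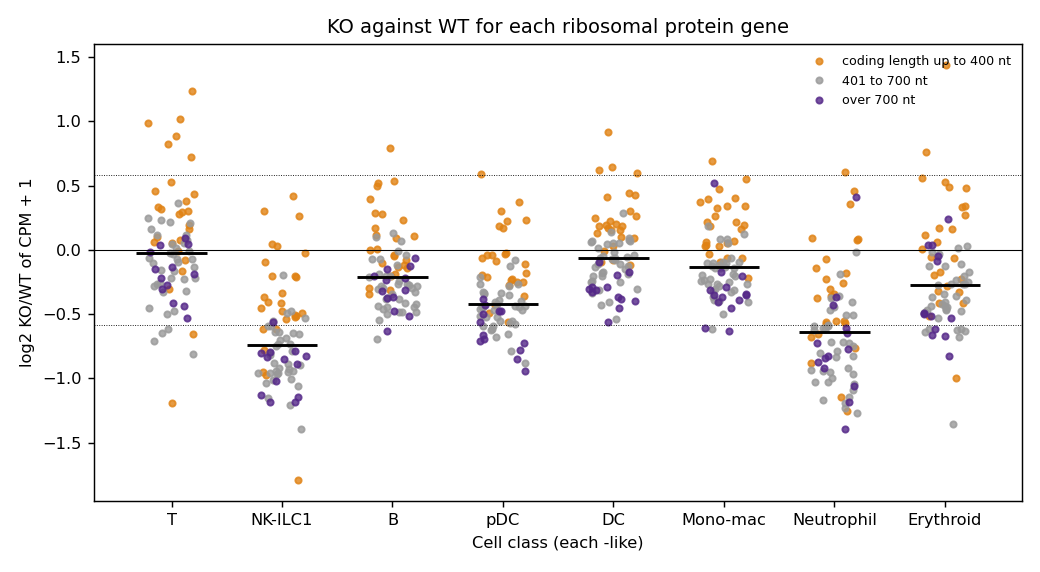
Log2 ratio of KO to WT (CPM plus 1) for each ribosomal protein gene with at least 20 summed UMIs, by class. Each dot is a gene coloured by coding length, black lines are class medians and dotted lines mark a 1.5-fold difference. NK-ILC1-like and neutrophil-like genes lie mostly below 0, and Rpl37a lies above 0 in every class.

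Read across classes, a few members kept 1 side. Rpl37a was above 0 in all 8 classes and called higher in 7, Rps29 and Rps21 were above 0 in 8, and Rps27, Rps28 and Rpl41 in 7. Rpl15 and Rps4x were below 0 in all 8 classes and called lower in 6 each, and Rpl29 in all 8, called in 5. These genes are counted over classes that share the same 2 libraries, so the classes are not independent of one another.

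By role, the stalk of the large subunit, where elongation factors bind, was split. In T-like cells Rplp1 and Rplp2, the acidic tip proteins, had 3145 and 2540 CPM in WT and 4103 and 3668 in KO, while their anchor Rplp0 had 1409 and 1057. The counts that follow stand beside 10.9% of all genes called higher and 17.6% lower in T-like cells, 6.90% and 18.9% in NK-ILC1-like cells, where 51 of 78 members were lower, and 18.3% and 23.1% in neutrophil-like cells. Of the 4 stalk genes none was called in T-like cells and 2 were called lower in NK-ILC1-like cells. Among 7 genes of the 5S particle and Mdm2 binding, which includes Rpl5 and Rpl11, 1 was called lower in T-like, 5 in NK-ILC1-like and 5 in neutrophil-like cells, and none higher. Of the 8 genes lining the mRNA channel of the small subunit, 1 was called higher in T-like cells and 4 lower in NK-ILC1-like cells. Of 9 exit-tunnel genes tested in NK-ILC1-like cells 8 were called lower, 1 in T-like cells. Of the 15 genes mutated in Diamond-Blackfan anaemia, an inherited failure of red-cell production, 3 were called higher and 1 lower in T-like cells, and 8 lower in NK-ILC1-like cells.

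The members called higher over all kept cells, Rpl37a, Rps27, Rps28 and Rps29, all have short coding sequences. This comparison, with its limits of 400 and 700 coding bases, was chosen after the values had been seen. Over all kept cells, members with a coding sequence of up to 400 bases had a median log2 ratio of 0.11 (27 genes), those of over 400 and up to 700 bases -0.25 (38 genes) and longer ones -0.29 (14 genes). Spearman's correlation between coding length and log2 ratio across 79 members was -0.615, and in single classes it lay between -0.432 and -0.809. Other genes at 50 CPM or more went the opposite way, with correlations of 0.118 to 0.352 in single classes. These correlations are across genes of the same 2 libraries, and genes are not independent replicates.

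A gap of the same sign was seen in every named cluster with at least 50 cells in each library. In 18 of 18 the median of the short members lay above that of the long ones, by 0.225 to 0.577 on the log2 scale. Rpl37a was above 0 in 17 of those clusters and Rpl15 below 0 in 18. Whether capture, fragmentation or RNA quality differed between the libraries with transcript length was not tested.

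**Figure D4:**
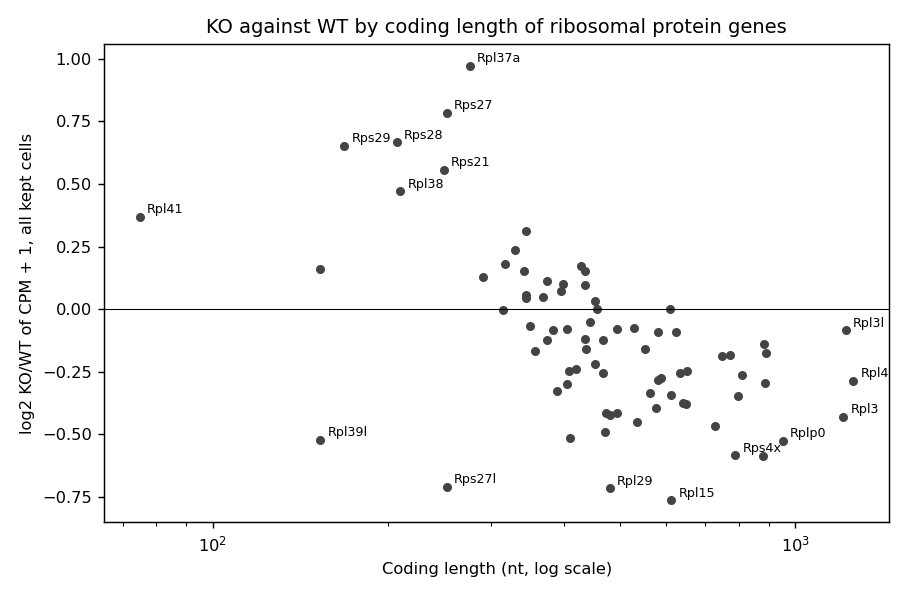
Log2 ratio of KO to WT over all kept cells (y axis) against coding length in bases (x axis, log scale) for the ribosomal protein genes. Rpl37a, Rps27, Rps28, Rps29, Rps21, Rpl38 and Rpl41 form the upper left, and Rps27l and Rpl39l lie low among the short genes.

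Second copies of ribosomal protein genes were also measured. Rps27l, expressed as a percentage of Rps27 and Rps27l UMIs together, was 12.5% in WT (12.3% to 12.7%) and 4.82% in KO (4.69% to 4.96%). In T-like cells it was 11.1% and 2.61%, in neutrophil-like cells 9.88% and 3.16%, and in monocyte-macrophage-like cells 13.9% and 10.2%. Rps27 is the denominator of this share and was itself higher in KO in 7 of 8 classes. In monocyte-macrophage-like cells Rps27l had 237.7 CPM in WT and 222.2 in KO, and Rps27 1474 and 1951. The pair share was lower in KO in 17 of 18 named clusters. In WT it was highest in progenitor-like cells at 30.4% and among T-like clusters in the dividing cluster 13, at 25.5%, where KO had 11.7%.

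Rpl36al, a near-identical copy of Rpl36a, took 41.7% of that pair in WT (41.3% to 42.05%) and 32.5% in KO (32.1% to 33.0%), and was lower in KO in 17 of 18 clusters. Because the copies are so alike, how the counting divided reads between them is uncertain. Rpl22l1 took 18.7% of its pair with Rpl22 in WT and 14.97% in KO. Rpl7l1 stood at 3.63% and 3.62% of its pair.

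Rpl3l, a form of Rpl3 known from heart and skeletal muscle, was read mostly in myeloid cells, with 255 UMIs in WT and 154 in KO over all kept cells. It had 149 UMIs in neutrophil-like cells of WT and 33 in KO, and 71 and 100 in monocyte-macrophage-like cells, against 13 and 4 in T-like cells. A UMI was found in 3.15% of WT neutrophil-like cells (2.65% to 3.72%) at a median depth of 2155 UMIs and in 0.238% of WT T-like cells at 2657. In KO it was found in 1.85% of neutrophil-like cells (1.24% to 2.64%) at 1023.5 UMIs and in 0.0823% of T-like cells at 1803. As a share of Rpl3 and Rpl3l it was 11.8% in WT and 23.2% in KO neutrophil-like cells, with the KO interval from 16.6% to 31.1%, while Rpl3 had 86.1 CPM in WT and 51.8 in KO and Rpl3l 11.5 and 15.7. In the monocyte-macrophage-like class 83 of its 100 KO UMIs came from cluster 12, led by Cd300e and Ace. Rpl10l had no UMI among 65503738 in WT, which allows up to 0.0458 CPM.

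**Figure D5:**
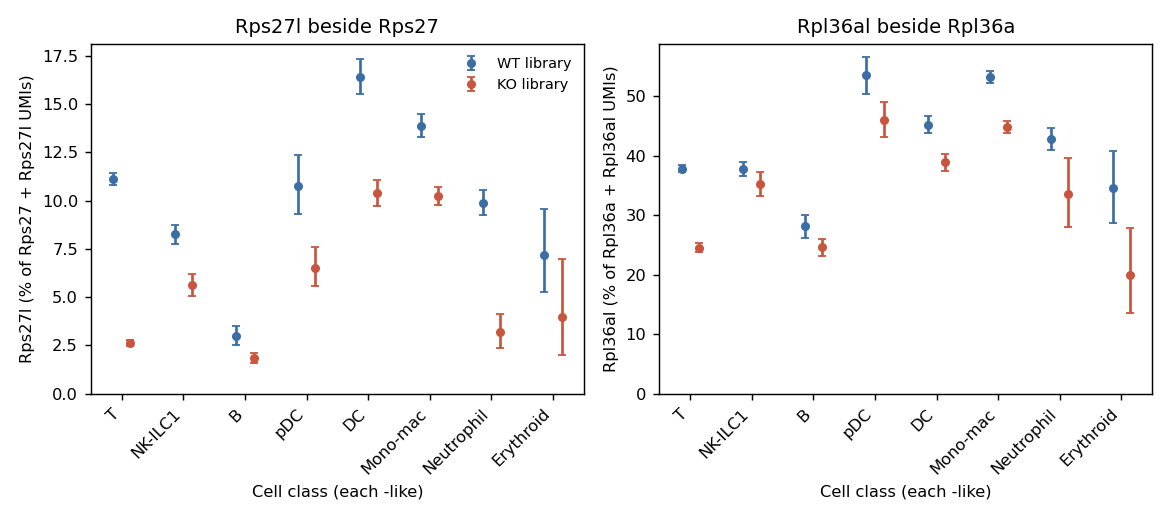
Second copy as a percentage of the UMIs of its pair, for Rps27l with Rps27 (left) and Rpl36al with Rpl36a (right), by class and library, with 95% intervals for counting error. Every KO point is below its WT point, with T-like cells at 11.1% and 2.61% for Rps27l.

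The make-up of the module also differed between classes of 1 library. Among members with at least 50 UMIs in every class, Rpl41 varied most, from 1.24% of ribosomal protein UMIs in B-like to 5.09% in erythroid-like cells of WT, and took 1.89% and 13.3% in the same classes of KO. Rps9 took 4.72% in neutrophil-like and 1.26% in NK-ILC1-like cells of WT, and 6.43% and 1.26% in KO. Rps27a, which is made as a fusion with ubiquitin, took 3.62% in neutrophil-like and 0.944% in erythroid-like cells of WT. In WT Rpl31 ranged from 0.324% in monocyte-macrophage-like to 1.10% in pDC-like cells, Rpl12 from 0.319% in neutrophil-like to 0.970% in T-like cells and Rplp0 from 0.813% in B-like to 2.39% in erythroid-like cells.

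The start regions of the members that stood out are shown because a TOP motif is the shared feature of this family. RefSeq's promoter table of GRCm38.p6 matched 60 of the 80 members, with 72 start sites. In the lines below, which run from 30 bases before to 20 after the listed start, capitals mark the longest run of C and T that touches the window of 5 bases on either side of that start. Where a gene has a second start, the first is shown. Rpl37a, Rps27 and Rps28 are the members highest in KO, Rpl15, Rps4x and Rplp0 are low ones, and Rps27l and Rpl3l are the second copies described.
Rpl37a (chr1:72711230-72711279, plus strand): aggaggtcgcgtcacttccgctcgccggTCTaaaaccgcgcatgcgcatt
Rps27 (chr3:90213629-90213678, minus strand): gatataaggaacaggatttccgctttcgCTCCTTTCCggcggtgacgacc
Rps28 (chr17:33824543-33824592, minus strand): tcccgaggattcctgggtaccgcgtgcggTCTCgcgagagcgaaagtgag
Rpl15 (chr14:18270967-18271016, minus strand): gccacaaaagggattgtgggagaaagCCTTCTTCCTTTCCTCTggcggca
Rps4x (chrX:102189372-102189421, minus strand): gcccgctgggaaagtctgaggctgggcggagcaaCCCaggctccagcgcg
Rplp0 (chr5:115559437-115559486, plus strand): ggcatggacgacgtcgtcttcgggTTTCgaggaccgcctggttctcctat
Rps27l (chr9:66946056-66946105, plus strand): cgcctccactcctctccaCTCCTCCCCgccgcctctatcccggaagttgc
Rpl3l (chr17:24727796-24727845, plus strand): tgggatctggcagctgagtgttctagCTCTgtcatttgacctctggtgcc

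Rps27 and Rpl15 have runs of 9 and 17 pyrimidines, and Rpl37a and Rps4x runs of 3. A run of at least 6 was found at 44.4% of member starts and 21.02% of all 32851 starts in the table. The motif CCGGAAG, on either strand within the 300 bases of a promoter, was found in 36.1% of member promoters and 8.86% of all, and AAGATGGCG, searched in the same way, in 6.94% and 1.40%. On the gene's own strand, CTTT within 10 bases of the start, which can overlap the pyrimidine run, was found in 23.6% and 8.24%, and TATAAA between 40 and 16 bases before it in 0% and 1.99%. At the 75 promoters of mitochondrial ribosomal protein genes, CCGGAAG was found in 34.7% and AAGATGGCG in 10.7%. A run of at least 6 was at 24% of these starts, CTTT at 5.33% and TATAAA at 0%. A match describes letters in a window and is not a bound site. The 31 members with a run of at least 6 and the 28 with shorter runs had median log2 ratios of -0.12 and -0.15 over all kept cells. No start was matched for 20 members, and the part of the run in the ratios was not tested.

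Other genes of the translation machinery were read as lists, beside 17.6% of all genes called lower in T-like, 18.9% in NK-ILC1-like and 23.1% in neutrophil-like cells. Of 78 mitochondrial ribosomal protein genes, 32 were called lower and none higher in T-like cells, 35 and none in NK-ILC1-like cells, and 50 of 77 lower and 1 higher in neutrophil-like cells. Mrps34 in T-like cells had 33.7 CPM in WT and 14.3 in KO. Of 24 other TOP mRNAs, 4 were called lower in T-like cells, 14 in NK-ILC1-like and 11 in neutrophil-like cells, and none higher in those 3 classes. Naca, a ribosome-bound chaperone component, had 613.8 CPM in WT and 276.3 in KO in NK-ILC1-like cells, and Eef1a1, which delivers aminoacyl-tRNA, 3637 and 1884. Ribosome assembly genes were mixed in T-like cells, with 3 of 42 called higher and 3 lower, on both sides a smaller share than the 10.9% and 17.6% of all genes. In the list of mTOR and Myc control, Sesn1 in T-like cells had 93.2 CPM in WT and 225.8 in KO, and Myc in NK-ILC1-like cells 42.6 and 14.1.

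The remaining lists were read in T-like cells, where 10.9% of all genes were called higher and 17.6% lower, and NK-ILC1-like cells, where 6.90% and 18.9% were. Of 19 RNA polymerase I genes, 3 were called higher and 1 lower in T-like cells, and 2 lower in NK-ILC1-like cells. Among 10 transcripts that host small nucleolar RNAs, 1 was higher and 2 lower in T-like cells and 5 lower in NK-ILC1-like cells, where Gas5 had 245.3 CPM in WT and 137.6 in KO. The mTOR and Myc list had 2 of 21 higher and 2 lower in T-like cells and 1 of 20 on each side in NK-ILC1-like cells. Of 8 ribosomal protein genes outside the naming rule, 1 was higher in T-like and 4 lower in NK-ILC1-like cells. Innate-like T-cell genes had 5 of 8 higher and 1 lower in T-like cells, and heat shock and dissociation genes 1 of 14 higher and 4 lower. In NK-ILC1-like cells 12 of 14 effector and 13 of 20 cell-division genes were lower, and 6 of 10 naive lymphocyte genes were higher. None of 3 nuclear retained RNAs was called in either class.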

How the data were processed

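The authors deposited raw UMI counts per gene and barcode for 2 libraries, with no normalization, per the file headers. Cell Ranger is given as 8.0.1 per the file headers and as 6.0.1 per the submitters' processing notes, which also list Seurat 4.3.0 and the build mm39. Barcodes under 200 genes or over 20% mitochondrial UMIs and Scrublet doublets (2996 WT, 1880 KO) were left out. Cells were scaled to 10000, clustered with 2000 variable genes, 30 components, 15 neighbours and Leiden (scanpy 1.11.5, leidenalg 0.10.2), without ribosomal protein, mitochondrial, haemoglobin, immunoglobulin, T-cell receptor and sex genes, and named X-like from at least 3 markers at least 2-fold higher in at least 10% of cells. Names were rebuilt here. Counts were summed per library and class. Log2 ratios are of CPM plus 1, so folds of low genes are understated. Intervals are exact Clopper-Pearson, Poisson or conditional binomial.

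The procedure was tested on simulated sums with 100 genes doubled and 100 halved. Over genes of every level, 97% of doubled and 96% of halved genes were called in T-like cells, 99% and 94% in NK-ILC1-like cells and 89% and 83% in all kept cells. The recovery first required, 85% at every level, was missed for halved genes in all kept cells. It was then required only of genes at 5 CPM or more, where all planted genes were called in all kept cells. Under 5 CPM 66.7% and 43.3% were called there, and Rpl3l and Rpl39l lie in that range.

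Named genes were the 3 highest and 3 lowest members per class with at least 50 counts, the 6 members that varied most across classes, second copies, and up to 4 genes of each list. Members and lists were chosen with earlier results of these data known. Coding lengths came from GENCODE M21, of another build than the files. Alternatives were scaling by TMM (edgeR 4.0.16) or by size factors (DESeq2 1.42.0), other filters, thinning to 1000 UMIs and free RNA subtraction. The free RNA profile had the ribosomal protein share of all barcodes together, 8.97% in WT and 7.09% in KO. Its estimated amount was 15.4 ribosomal protein UMIs for each WT cell and 7.16 for each KO cell. The smallest barcode had 500 UMIs, so that profile is not one of empty droplets alone. Some genes and 1 gene list are not reported here.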

Additional observations from a re-analysis of the deposited data

Results flagged for a closer look

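The KO to WT log2 ratio of the ribosomal protein share was 0.102 in T-like cells and -0.597 in NK-ILC1-like cells, opposite in sign between the 2 classes. With clusters weighted equally the T-like value was -0.140, so the contrast in sign depends on how clusters are weighted. The difference between the classes was not tested, since each genotype has 1 library. Barcodes with fewer than 200 genes held 0.567% ribosomal protein UMIs in WT and 0.622% in KO. They entered no comparison as cells, but the free RNA profile had the ribosomal protein share of all barcodes, these included. An unnamed cluster led by Slc28a2b, Tdrp, Nsg2 and Dapl1, with a haemoglobin share of 35.6% in WT and 43.2% in KO, held 18.6% ribosomal protein UMIs outside haemoglobin in WT and 16.9% in KO.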

How the results depend on the processing

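No paired analysis was possible because each genotype was measured in 1 library, so leaving out a replicate leaves no comparison. Class names are given without the suffix -like. The values that moved beyond counting error, or by over 1.5 times for counts, were these, and the cause was not tested.

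With at least 500 genes and at most 10% mitochondrial UMIs, the log2 ratio of the share was 0.116 in T, -0.584 in NK-ILC1, -0.101 in B, -0.296 in pDC, -0.0373 in mono-mac, -0.442 in Neutrophil, 0.672 in Erythroid and -0.0166 in all kept cells. With at least 500 genes and at most 10% mitochondrial UMIs, the median member was at 1.18 in Erythroid and -0.128 in all kept cells. With at least 500 genes and at most 10% mitochondrial UMIs, the members called lower numbered 0 in Erythroid. With doublets kept and cells clustered again, the log2 ratio of the share was 0.108 in T, -0.628 in NK-ILC1, -0.0841 in B, -0.275 in pDC, 0.0177 in DC, -0.0366 in mono-mac, -0.0825 in Neutrophil and -0.036 in all kept cells. With doublets kept and cells clustered again, the median member was at -0.195 in Neutrophil. With doublets kept and cells clustered again, the members called higher numbered 2 in DC and 2 in Neutrophil. With doublets kept and cells clustered again, the members called lower numbered 1 in mono-mac and 10 in Neutrophil. With cells thinned to 1000 UMIs, the log2 ratio of the share was 0.202 in T, -0.492 in NK-ILC1, -0.0875 in B, -0.409 in pDC, -0.0775 in DC, -0.0802 in mono-mac, 0.112 in Erythroid and 0.12 in all kept cells. Thinning left out 1924 of the kept WT cells and 2664 of the kept KO cells, so it also changed which cells were compared. Among Neutrophil cells it left out 466 of 4315 in WT and 743 of 1570 in KO. With cells thinned to 1000 UMIs, the median member was at 0.094 in T, -0.64 in NK-ILC1, -0.157 in DC, -0.173 in mono-mac and 0.0134 in all kept cells. With cells thinned to 1000 UMIs, the members called higher numbered 2 in B, 0 in pDC, 2 in DC, 2 in mono-mac and 0 in Neutrophil. With cells thinned to 1000 UMIs, the members called lower numbered 2 in T, 26 in pDC, 7 in Erythroid and 1 in all kept cells. Without cells over 10% haemoglobin, the log2 ratio of the share was 0.127 in T, -0.413 in NK-ILC1, -0.0824 in B, -0.0611 in pDC, 0.117 in DC, 0.134 in mono-mac, -0.435 in Neutrophil and 0.185 in all kept cells. Without cells over 10% haemoglobin, the median member was at -0.542 in NK-ILC1, -0.146 in pDC, 0.069 in DC, 0.0666 in mono-mac and 0.0819 in all kept cells. Without cells over 10% haemoglobin, the members called higher numbered 1 in NK-ILC1, 2 in pDC and 5 in mono-mac. Without cells over 10% haemoglobin, the members called lower numbered 4 in pDC, 0 in mono-mac and 0 in all kept cells. With estimated free RNA subtracted, the log2 ratio of the share was 0.116 in T, -0.607 in NK-ILC1, -0.574 in Neutrophil, 0.948 in Erythroid and -0.0337 in all kept cells. With estimated free RNA subtracted, the median member was at -0.854 in Neutrophil and 0.95 in Erythroid. With estimated free RNA subtracted, the members called higher numbered 0 in Neutrophil and 49 in Erythroid. With estimated free RNA subtracted, the members called lower numbered 0 in Erythroid. With haemoglobin left out of the total, the log2 ratio of the share was 0.134 in T, -0.391 in NK-ILC1, -0.0668 in B, -0.115 in pDC, 0.113 in DC, 0.131 in mono-mac, -0.365 in Neutrophil, -0.193 in Erythroid and 0.165 in all kept cells. With haemoglobin, mitochondrial and Malat1 UMIs left out, the log2 ratio of the share was 0.147 in T, -0.384 in NK-ILC1, -0.0637 in B, -0.103 in pDC, 0.116 in DC, 0.133 in mono-mac, -0.336 in Neutrophil, -0.17 in Erythroid and 0.179 in all kept cells. As a mean of per-cell shares, the log2 ratio of the share was 0.119 in T, -0.511 in NK-ILC1, -0.129 in B, -0.478 in pDC, -0.0808 in DC, -0.116 in mono-mac, 0.129 in Erythroid and 0.0427 in all kept cells. With ribosomal proteins outside the name rule added, the log2 ratio of the share was 0.0949 in T, -0.442 in Neutrophil and -0.0486 in all kept cells. With clusters weighted equally, the log2 ratio of the share was -0.14 in T, -0.566 in NK-ILC1, -0.0287 in DC, -0.075 in mono-mac and -0.314 in Neutrophil. With a fold of 2, the members called higher numbered 2 in T, 0 in B, 0 in pDC, 0 in DC, 0 in mono-mac, 0 in Neutrophil, 1 in Erythroid and 0 in all kept cells. With a fold of 2, the members called lower numbered 1 in T, 13 in NK-ILC1, 0 in B, 0 in pDC, 0 in mono-mac, 14 in Neutrophil, 1 in Erythroid and 0 in all kept cells. With mitochondrial UMIs left out of the total, the log2 ratio of the share was -0.606 in NK-ILC1 and -0.0565 in mono-mac. Under TMM scaling, the median member was at -0.642 in NK-ILC1, -0.249 in pDC, 0.000295 in DC, -0.0521 in mono-mac and -0.118 in all kept cells. Under TMM scaling, the members called higher numbered 2 in B, 3 in mono-mac and 0 in Neutrophil. Under TMM scaling, the members called lower numbered 5 in pDC and 0 in mono-mac. Under DESeq2 scaling, the median member was at -0.635 in NK-ILC1, -0.218 in pDC, 0.00216 in DC, -0.0721 in mono-mac and -0.111 in all kept cells. Under DESeq2 scaling, the members called higher numbered 2 in B, 2 in mono-mac and 0 in Neutrophil. Under DESeq2 scaling, the members called lower numbered 1 in B, 3 in pDC, 0 in mono-mac and 7 in Erythroid. With no minimum count, the members called higher numbered 2 in pDC and 2 in mono-mac. With no minimum count, the members called lower numbered 4 in B. With a pseudocount of 10 CPM, the median member was at -0.14 in all kept cells. With a pseudocount of 10 CPM, the members called lower numbered 1 in Erythroid.

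The NK-ILC1-like share stayed lower in KO under all alternatives, between -0.628 and -0.384. No erythroid-like cell was left without those over 10% haemoglobin, so that class has no value there. Depth limits Rpl3l, Rpl39l and the erythroid-like members.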
